A study of Sus scrofa with 2 samples.

Results

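Pig chromosome 1 was profiled from end to end in 1 angiosarcoma-like liver tumor and 1 non-tumor control tissue by array-based comparative genomic hybridization. Its members were all non-control probes whose name on the array places them on chromosome 1. There were 21818 of them among 168312 probes on the 18 autosomes and 177440 probes in all, that is 13.0% of the autosomal probes. Chromosome 1 holds more probes than any other chromosome of this design.

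Both tissues and both references were female pig (Sus scrofa) liver. The tumor was angiosarcoma-like, and the series describes a dose of 200 mg/kg body weight of DENA and a resection of the liver 10 months later. DENA (diethylnitrosamine) is an alkylating liver carcinogen. The sample labels attach the DENA injection to both samples and do not say whether the animal behind the control tissue had received it. Genomic DNA was hybridized, and by the study's methods the liver tumors were paraffin-embedded and micro-dissected. The share of non-tumor cells in the tumor sample is not given. On both arrays the tissue DNA was labelled with Cy3 and DNA of reference liver, age-matched by the study's methods, with Cy5. Each tissue was measured on 1 array, on a slide not shared with the other, so the effects of slide and of tissue cannot be told apart. No test between the tissues was run, and errors are SDs over probes or windows.

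In this assay tissue DNA and reference DNA compete for the same probes, and where the tissue holds more copies of a stretch the log2 ratio of both signals rises. Tumors of endothelial cells, angiosarcomas, can carry gains and losses of whole chromosomes, of chromosome arms or of short segments. Normal cells mixed into a tumor sample, and alterations present only in some of the tumor cells, pull such ratios towards 0. In a diploid sample made only of tumor cells, the loss of 1 of both copies would give a log2 ratio of -1, and 3 copies against 2 would give 0.58. A ratio can also carry a technical trend that follows how bright a stretch of probes is.

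The probes were 45 bp long with a median distance of 10175 bp between neighbours, and they ran from position 1 to position 295465395. The largest gap between probes measured 543 kb and lay at 294471901 to 295014876. Positions are those in the probe names, in a genome build that is not named in the sources used here. The last annotated gene of chromosome 1 in the Sscrofa11.1 annotation ends at 274280750, so that annotation was not laid over these positions and no gene is named. Windows of 1 Mb were summarised by the median over their probes. There were 296 windows on chromosome 1, with 21 to 99 probes and a median of 75 probes each.

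Signals were dim. The median background-subtracted signal over chromosome 1 was 62.4 in the tissue channel and 102 in the reference channel of the tumor array. On the control array it was 42.9 and 80.6. Both channels were well above background for 76.9% of the chromosome 1 probes of the tumor and for 72.7% of those of the control. The noise between neighbouring probes of all autosomes was 0.40 on the log2 scale for the tumor and 0.42 for the control. On chromosome 1 itself it was 0.416 and 0.444, so a single probe carries little information and the values below are medians or means over many probes.

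No shift of the whole chromosome by a full copy was seen. The median log2 ratio over all of its probes was 0.06 in the tumor (SD 0.52 over 21816 probes) and 0.01 in the control tissue (SD 0.53 over 21818 probes). Against the median of each array's autosomes, chromosome 1 thus lay a little above 0 on the tumor array and close to 0 on the control array. These medians were the 4th and the 7th highest of the 18 autosomes. In the tumor, chromosomes 8, 13 and 15 had higher medians (0.11, 0.07 and 0.09), and the lowest was that of chromosome 12 (-0.23). With each array centred on the mode, the medians of chromosome 1 were 0.03 in the tumor and 0.08 in the control, so the order of the tissues turned.

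Within the chromosome the tumor profile was uneven. Both ends lay below 0 and most of the interior lay above 0. The window medians of the tumor ran from -0.54 to 0.46 with a median of 0.08 and an SD of 0.167 over windows. In the control they ran from -0.29 to 0.28 with a median of 0.02 and an SD of 0.0853. The tumor windows were therefore spread more widely than those of the control, yet among the 18 autosomes the spread of chromosome 1 ranked only 15th on the tumor array and 14th on the control array.

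**Figure D1:**
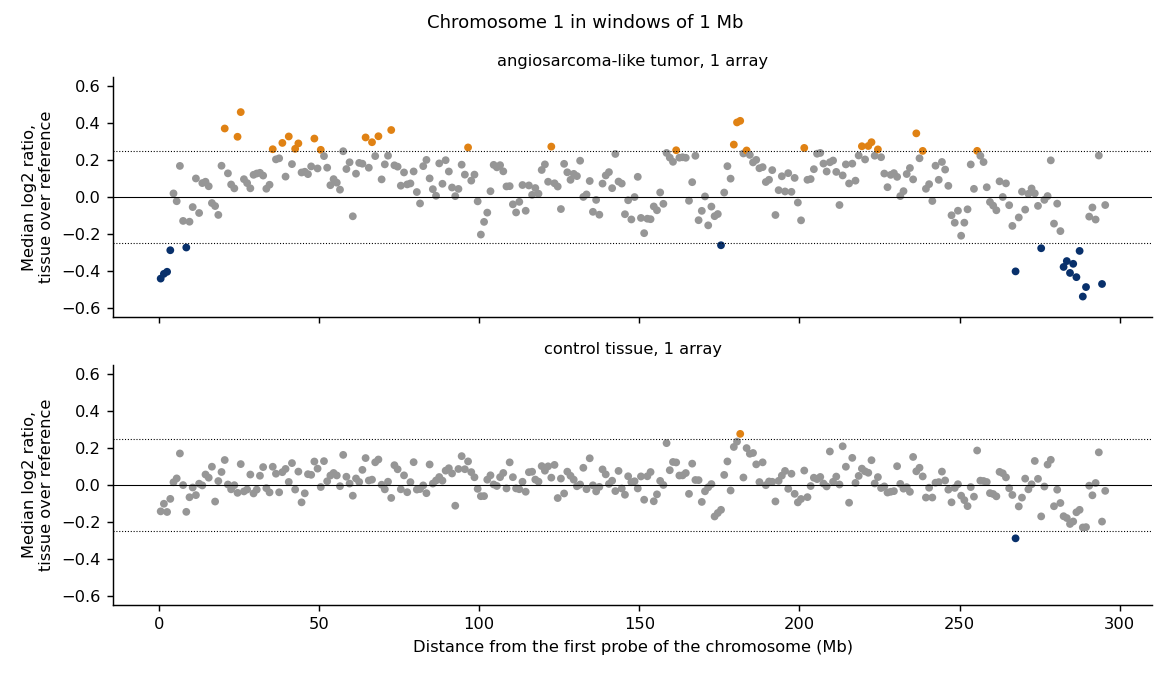
Median log2 ratio of tissue over reference in 1 Mb windows along chromosome 1 (distance from the first probe, in Mb), with the tumor above and the control tissue below. Points are windows, blue at or below -0.25, orange at or above 0.25 and grey between, and the dotted lines mark these limits. The lowest tumor window, at -0.54, lies near the far end and the highest, at 0.46, about 25 Mb from the start, while all but 2 control windows lie between the lines.

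A window was counted as low at a median of -0.25 or less and as high at 0.25 or more. In the tumor 17 windows (5.74%) were low, against a background of 12.1% of the windows of all autosomes, and 29 windows (9.80%) were high, against 9.46%. In the control 1 window (0.338%) was low, against 0.326%, and 1 window (0.338%) was high, against 0.699%. Low windows were thus a smaller share on chromosome 1 than over all autosomes of the tumor, and the share of high windows was near the background. No window on either array reached -1. The split between low and high windows of the tumor moved with the scaling. It was 17 low and 15 high with each array centred on the mode of its autosomal probes, 20 and 11 with chromosome 1 centred on its own median, 25 and 6 after a normexp background correction of the median signals, and 14 and 25 with the deposited log ratios. The control counts moved too, to 0 low and 7 high with centring on the mode, and to more of both after normexp.

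The low windows of the tumor gathered at the ends of the chromosome. Of the 17, 14 lay in the 26 windows that make up the first 10 Mb and the stretch from 280 Mb on, 5 of them in the first 10 Mb and 9 in the last stretch. The 3 others stood alone in the 270 windows between, at 175 to 176 Mb (-0.26 in the tumor and -0.14 in the control), 267 to 268 Mb (-0.40 and -0.29) and 275 to 276 Mb (-0.28 and -0.17). All 29 high windows lay between 10 and 260 Mb, 15 of them in the 90 windows from 10 to 100 Mb and 14 in the 160 windows from 100 to 260 Mb. In the control tissue the only low window was the one at 267 to 268 Mb.

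The longest low stretch was near the far end. Between 280 and 290 Mb the median log2 ratio was -0.36 in the tumor (SD 0.39 over 675 probes) and -0.16 in the control tissue (SD 0.42). Below 0 lay 82.7% of the tumor values and 66.2% of the control values. Among the 220 stretches of 10 Mb on all autosomes this one was the 4th lowest on the tumor array and the 2nd lowest on the control array. It was low on both arrays, and the size was larger in the tumor.

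Within it, the 8 windows from 282 to 290 Mb ran from -0.54 to -0.29 in the tumor with a median of -0.39, and from -0.23 to -0.14 in the control with a median of -0.19. The 2 ranges did not overlap, though these are the longest run of low windows of the tumor and so were picked for their tumor values. The lowest window of the chromosome, at 288 to 289 Mb, had a median of -0.54 in the tumor (SD 0.32 over 66 probes) and -0.23 in the control (SD 0.46), with 93.9% and 74.2% of the probes below 0. Its median processed signals were 1743 for the tumor against 2701 for the reference, and 2144 for the control tissue against 2528 for the reference. The windows at 289 to 290 Mb (-0.49 in the tumor, -0.23 in the control) and 286 to 287 Mb (-0.43 and -0.15) were also among the 5 lowest of the tumor.

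Past 290 Mb the profile was broken up. The window at 293 to 294 Mb stood at 0.23 in the tumor and 0.18 in the control, above 0 on both arrays. The next one, at 294 to 295 Mb, stood at -0.47 and -0.20 with 47 probes. Over the stretch from 290 Mb to the last probe the median was -0.10 in the tumor and -0.01 in the control (331 probes). Low windows on the tumor array therefore did not run without a break to the end of the chromosome.

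The start of the chromosome was the other low stretch. The first 4 windows had medians of -0.44, -0.42, -0.40 and -0.29 in the tumor and of -0.14, -0.10, -0.15 and -0.08 in the control. The tumor was lower in each of them. The window at 0 to 1 Mb is among the 5 lowest of the tumor and rests on 59 probes. From 4 to 5 Mb the median was back at 0.02 in the tumor and 0.01 in the control, and over the first 10 Mb it was -0.17 and -0.05 (730 probes).

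The interior of the chromosome was mostly above 0. From 10 to 260 Mb the median was 0.10 in the tumor (SD 0.52 over 18663 probes) and 0.02 in the control (SD 0.54 over 18665 probes). The 25 stretches of 10 Mb there ran from -0.03 to 0.22 in the tumor and from -0.03 to 0.11 in the control. From 20 to 100 Mb, 77 of 80 windows were above 0 in the tumor and 54 of 80 in the control. These interior values hold for the centring on the median of the autosomes. Centring on the mode lowers all tumor values and raises all control values. The control median from 10 to 260 Mb is then the higher one. No stretch of 10 Mb in the interior reached 0.25, so the high windows were local peaks on a low plateau.

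**Figure D2:**
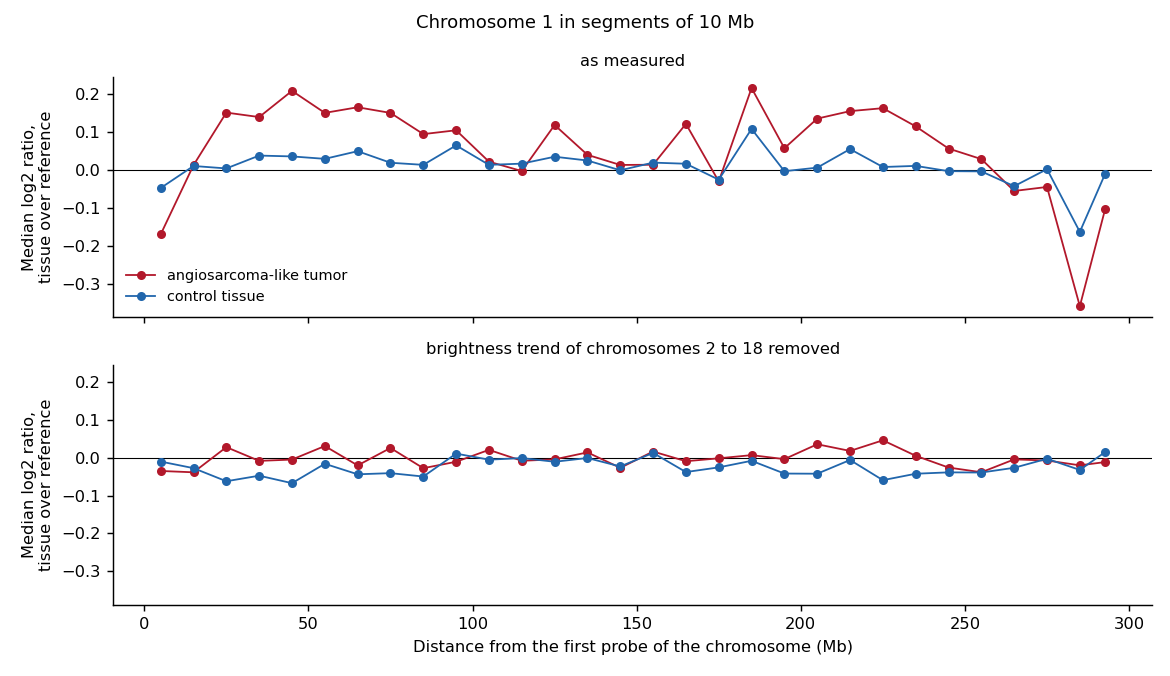
Median log2 ratio in stretches of 10 Mb along chromosome 1 (distance from the first probe, in Mb) for the tumor (red) and the control tissue (blue), as measured (above) and with the brightness trend of chromosomes 2 to 18, described further on, removed (below). As measured, the stretch from 280 to 290 Mb is the lowest for both, at -0.36 and -0.16, and the stretch from 180 to 190 Mb the highest for both, at 0.22 and 0.11, while with the trend removed all tumor stretches lie between -0.04 and 0.05.

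The highest stretch of 10 Mb, from 180 to 190 Mb, had a median of 0.22 in the tumor and 0.11 in the control (778 probes, SD 0.58 on each array). Of the 5 highest tumor windows, 2 lay in it, at 180 to 181 Mb (0.40 in the tumor, 0.23 in the control) and 181 to 182 Mb (0.41 and 0.28). These were also the 2 highest windows of the control, so the peak was shared, and its windows were higher in the tumor. The control windows that came next, at 158 to 159 Mb (0.23) and 213 to 214 Mb (0.21), had tumor medians of 0.24 and 0.12. There the tumor was close to the control or below it.

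The 3 other windows among the 5 highest of the tumor had lower control values. The highest window of the tumor, at 25 to 26 Mb, had a median of 0.46 (SD 0.59 over 66 probes), and the control had 0.11 there (SD 0.66). The window at 20 to 21 Mb had 0.37 and 0.13. The window at 72 to 73 Mb had 0.36 in the tumor and -0.07 in the control, on 87 probes. In this last window the arrays lay on opposite sides of 0.

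Both profiles followed the brightness of the stretch. Brightness was the reference signal around a probe (mean log2 over 250 kb on each side), read on the array of the other tissue, so that it shares no spot with the ratio it is set against. Over the 296 windows the Pearson correlation of the median log2 ratio with this brightness was -0.90 in the tumor and -0.70 in the control. The windows share the array and its dyes and neighbouring windows share DNA, so the correlation is a description. The bright stretches were the low ones, and the dim stretches were the high ones, on both arrays. The correlation with the number of probes in a window was 0.14 in the tumor and 0.08 in the control.

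The low end and the high stretch were the extremes of brightness as well. From 280 to 290 Mb the median reference signal was 1659 beside the tumor and 1588 beside the control, the highest of the 30 stretches of 10 Mb. From 180 to 190 Mb it was 312 on both, the lowest. Over the first 10 Mb it was 1013 and 982, and from 10 to 260 Mb it was 516 and 510.

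**Figure D3:**
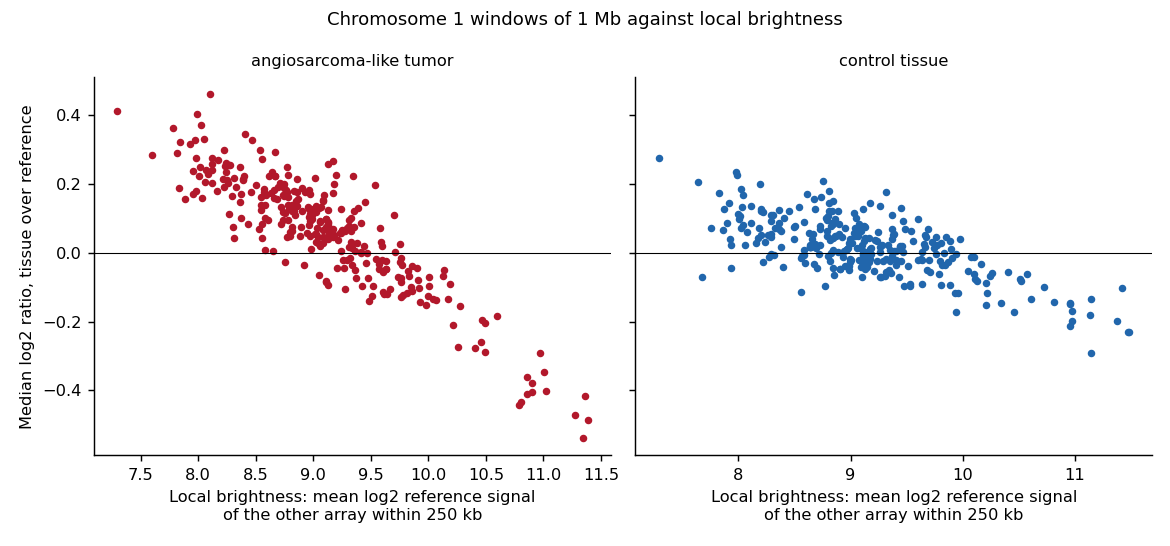
Median log2 ratio of each 1 Mb window of chromosome 1 against the local brightness of the reference on the other array (mean log2 signal), for the tumor (left) and the control tissue (right). Points are windows, and they fall with brightness on both arrays (Pearson r of -0.90 and -0.70 over 296 windows).

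The trend of ratio on brightness was learned on chromosomes 2 to 18 and subtracted on chromosome 1. The SD over windows then was 0.0702 in the tumor and 0.0603 in the control. Low and high windows numbered 0 in both tissues, against 0.0932% low and 0.186% high over all autosomes of the tumor, and 0.0% and 0.0932% in the control. The lowest and the highest tumor windows then stood at -0.21 and 0.21. From 280 to 290 Mb the median was -0.02 in the tumor and -0.03 in the control, and the first 4 windows ran from -0.11 to -0.02 in the tumor and from -0.03 to 0.03 in the control. From 180 to 190 Mb it was 0.01 and -0.01. Chromosome 1 did not enter the curve. What equally bright stretches of chromosomes 2 to 18 had in common was subtracted, whatever its source, and that source was not tested.

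Window by window the tissues resembled each other. The Pearson correlation of the window medians of both arrays was 0.71 and Spearman's rho was 0.60 over 296 windows, and 219 windows had the same sign. The slope of tumor on control was 1.38, and the median difference of tumor minus control was 0.05. Because of this offset the slope does not say which windows lay further from 0 in the tumor. Below 0 lay 122 windows in the control and 83 in the tumor. On chromosomes 2 to 18 the correlation was 0.78 and the slope 1.61 over 1849 windows. With the brightness trend removed the correlation on chromosome 1 was 0.17. Picked for their tumor values, all 17 low tumor windows were below 0 in the control, with a median of -0.40 in the tumor and -0.17 in the control. Of the 29 high tumor windows, 25 were above 0 in the control, with medians of 0.29 and 0.09.

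**Figure D4:**
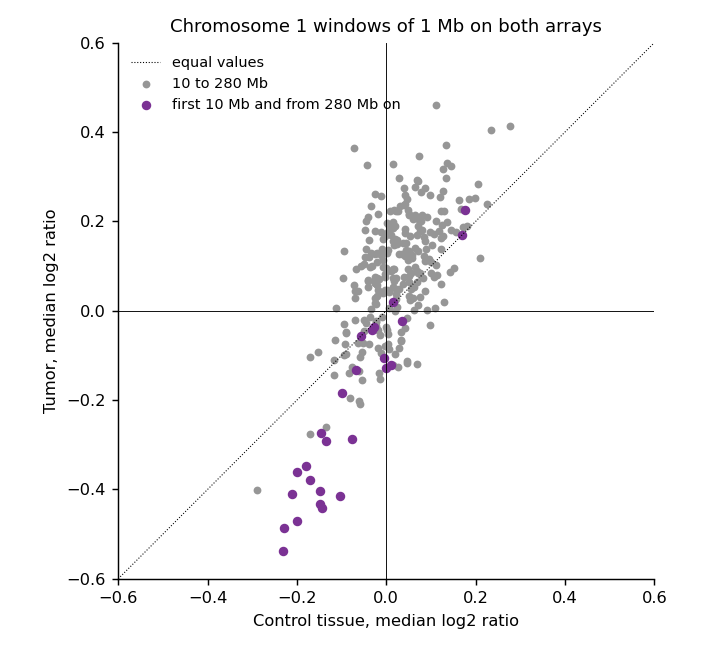
Median log2 ratio of the tumor (vertical axis) against that of the control tissue (horizontal axis) in the 296 windows of 1 Mb on chromosome 1. Purple points are windows of the first 10 Mb and from 280 Mb on, and the dotted line marks equal values. The lowest tumor windows are also below 0 in the control, and the 2 windows at 180 to 182 Mb are high in both.

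The tumor minus control difference of a window ran from -0.31 to 0.43 with a median of 0.05 and an SD of 0.123 over windows. It was -0.25 or lower in 7 windows (2.36%), against 3.82% over all autosomes, and 0.25 or higher in 10 windows (3.38%), against 2.66%. The 5 lowest differences lay at 1 to 2 Mb (-0.31), 288 to 289 Mb (-0.31), 0 to 1 Mb (-0.30), 286 to 287 Mb (-0.28) and 294 to 295 Mb (-0.27), all of them in the low ends. The 5 highest lay at 72 to 73 Mb (0.43), 24 to 25 Mb (0.37), 25 to 26 Mb (0.35), 40 to 41 Mb (0.31) and 42 to 43 Mb (0.29), all of them in the first 100 Mb. The split of 7 and 10 also moved with the scaling, to 18 and 2 with centring on the mode, 10 and 4 with chromosome 1 centred on its own median, 4 and 21 with the deposited log ratios and 2 and 0 after normexp, and it was 8 and 21 when dim spots, those not well above background, were left out. With the brightness trend removed, 0 windows had a difference of -0.25 or lower and 1 had 0.25 or higher.

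Altered intervals were then searched without fixed windows. An interval was called where the sum of the log2 ratios over at least 3 neighbouring probes, scaled by the noise and the square root of their number, reached a score of 6 and the mean was at least 0.25 in size. Called intervals are named losses or gains after the sign of the ratio alone. On the tumor array 33 intervals were called on chromosome 1, 10 losses with 18.6 Mb and 23 gains with 40.7 Mb. On the control array 13 were called, 2 losses with 1.55 Mb and 11 gains with 8.05 Mb. Losses held 5.81% of the tumor probes of chromosome 1, against 18.5% over all autosomes, and gains held 14.4%, against 14.0%. In the control these shares were 0.50% against 0.298% and 2.68% against 5.28%. Chromosome 1 thus held a smaller share of called loss than the autosomes together on the tumor array, and a share of called gain near the background. With the brightness trend removed the order for losses turned, at 0.912% against 0.634%. The tumor calls were 14 losses and 16 gains with centring on the mode, 17 and 9 with chromosome 1 centred on its own median, 27 and 14 after normexp, and 7 and 28 with the deposited log ratios. The control calls were 1 loss and 26 gains with centring on the mode, and 2 and 11 with chromosome 1 centred on its own median. Restricted to spots well above background on both dyes, the search gave a called length of 106 Mb in the tumor and 3.34 Mb in the control. This filter uses the same signals as the ratio. On the tumor array 77.2% of the chromosome 1 probes passed it in the tissue channel and 86.7% in the reference channel. It thus does not act alike on low and high ratios.

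**Figure D5:**
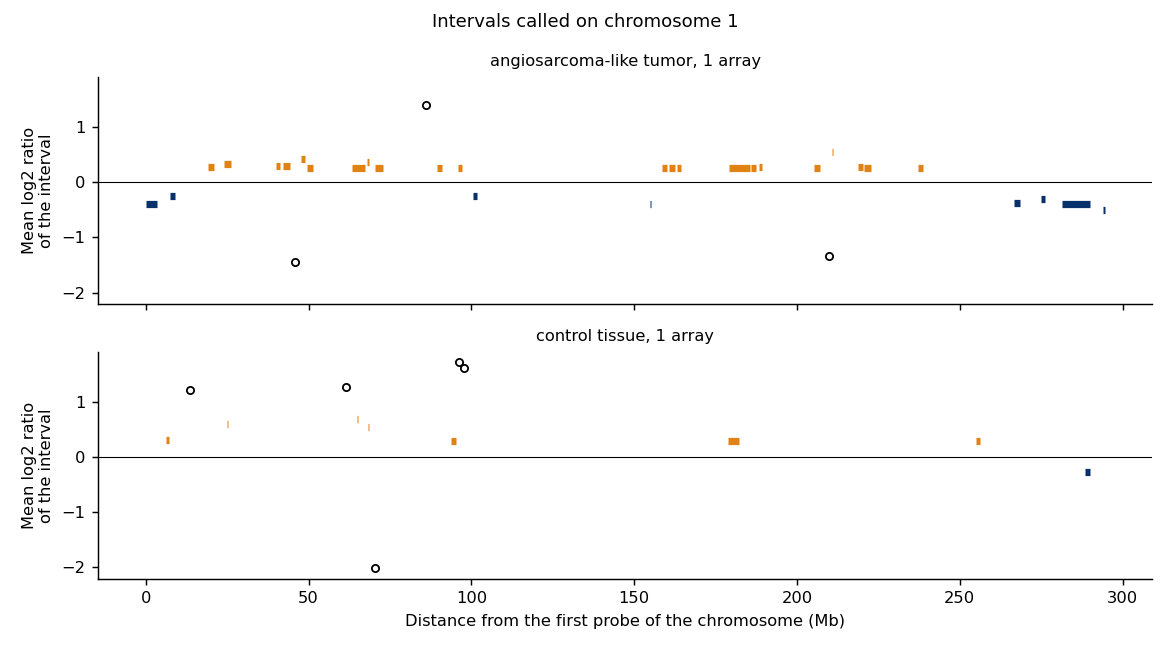
Called intervals on chromosome 1 in the tumor and the control tissue, drawn as bars at their mean log2 ratio (blue for losses, orange for gains) along the chromosome (distance from the first probe, in Mb), with circles for intervals of at most 5 probes. The tumor has 33 intervals and the control 13, and the widest one, 8.61 Mb long at a mean of -0.39, lies near the far end of the tumor profile.

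The interval with the highest score was the loss from 281305451 to 289920020, which is 8.61 Mb long with 568 probes and a score of 23.4. Its mean log2 ratio was -0.39 in the tumor (SD 0.35), with 88.7% of the probes below 0, and -0.15 in the control, with 69.5% below 0. It had the 5th highest score of the 284 intervals on the tumor array. The 20 probes before it had a median of 0.02 and the 20 after it a median of -0.17. On the control array a shorter loss was called inside it, from 288388176 to 289920020, with 106 probes and a mean of -0.27 against -0.54 in the tumor. With the brightness trend removed the mean of the tumor loss was -0.03.

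The loss at the start of the chromosome ran from 18501 to 3602920 with 222 probes and a score of 14.6. Its mean was -0.39 in the tumor (SD 0.37) and -0.12 in the control, and -0.07 in the tumor with the trend removed. No control interval overlapped it. A loss from 294077851 to 294458995, just before the largest gap between probes, had a mean of -0.50 in the tumor (SD 0.22), with all of its 39 probes below 0, and of -0.21 in the control. With the trend removed its tumor mean was -0.05.

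The gains with the highest scores were wide and shallow. The gain from 179117926 to 185558745 (452 probes, score 13.4) had a mean of 0.25 in the tumor (SD 0.60) and 0.21 in the control. A control gain from 178702601 to 182146420, which had the highest score of the 13 control intervals of chromosome 1 and the 7th highest of the 137 on the control array, overlapped it, with means of 0.29 in the control and 0.27 in the tumor. Their medians were further apart than their means, at 0.32 in the tumor and 0.15 in the control over the tumor gain, and 0.34 and 0.22 over the control gain.

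The gain from 63257976 to 67372420 (321 probes, score 11.2) had a mean of 0.25 in the tumor and 0.11 in the control. The gain from 23917726 to 26107245 (162 probes, score 10.4) had 0.33 and 0.13. With the trend removed, the tumor means of these 3 gains were -0.03, 0.00 and 0.08. The gain from 210749226 to 211076720 was narrower and higher, with a mean of 0.54 in the tumor over 31 probes (SD 0.62) and 0.24 in the control, and 0.31 in the tumor with the trend removed.

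The largest means of the tumor belonged to intervals of 3 or 4 probes, and each was smaller in size without dim spots. Without the spots that were not well above background, the means of the 3 tumor intervals described next were -0.61, 0.77 and -0.20. The filter uses the same signals as the ratio, and a spot with a very low tissue signal fails it. Smaller means after it are thus partly built in and do not show what these intervals are. In the loss from 45913301 to 45999370 the mean was -1.44 (SD 1.47), from probe values of -0.41, -3.13 and -0.79 in the tumor beside -0.33, -1.50 and -0.51 in the control. All 3 probes were below 0 in both tissues, and the probe at -3.13, which carried most of the mean, was not well above background. The gain from 86083276 to 86115695 had a mean of 1.40 (SD 1.08), from 2.65, 0.69 and 0.87 in the tumor beside -0.23, 0.53 and 0.48 in the control. Here too the probe farthest from 0 was not well above background.

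Over the loss from 209744676 to 209780795 the mean was -1.33 (SD 0.98), from -2.56, -0.19, -1.07 and -1.51 in the tumor beside 0.89, -0.42, 1.61 and -1.08 in the control. Here 2 of the 4 probes had opposite signs in the tissues, and 3 of the 4 were not well above background in the tumor. The control array had such calls too. Its loss from 70543276 to 70563670 (3 probes) had a mean of -2.02 in the control and 0.41 in the tumor, and its gain from 96190751 to 96258320 (3 probes) had 1.72 in the control and 0.39 in the tumor. Intervals of at most 5 probes numbered 3 of 33 in the tumor and 5 of 13 in the control, beside 18 of 284 and 37 of 137 over all autosomes. Short calls were thus the larger share in the control on the whole array as well.

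The called length was 59.3 Mb in the tumor and 9.60 Mb in the control. With centring on the mode it was 41.9 Mb and 43.9 Mb, and the tumor length was then not the longer one. With chromosome 1 centred on its own median it was 38.4 Mb and 8.87 Mb. Intervals of the same direction, with the centring on the median, overlapped over 5.50 Mb, which is 57.3% of the called length of the control and 9.27% of that of the tumor. Much of it lay in the control gain from 178702601, which is 3.44 Mb long and was overlapped over 87.9% of its length. The tumor calls held 20.2% of the chromosome 1 probes, and the matching overlap over all autosomes is not given here. Intervals of opposite directions overlapped over 0.0093 Mb. Of the 10 tumor losses 9 had a control mean below 0, and of the 23 tumor gains 22 had a control mean above 0. These intervals were picked for their tumor values. The control mean over all chromosome 1 probes was itself above 0, at 0.05, so the count for the gains is not read as a likeness of the tissues.

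With the brightness trend removed the search called 10 intervals on the tumor array, all of them losses, with 2.18 Mb together and 3 to 59 probes each. These losses held 0.912% of the chromosome 1 probes, against 0.634% over all autosomes, and gains held 0.0%, against 0.0588%. Losses also made up 57 of the 65 tumor calls of all autosomes. On the control array it called 7, of which 3 were losses and 4 gains, with 0.402 Mb together. They held 0.124% of the probes as losses, against 0.0303%, and 0.0596% as gains, against 0.219%. At most 5 probes made up 6 of the 10 tumor calls and 6 of the 7 control calls, beside 34 of 65 and 36 of 51 over all autosomes. The tumor call with the most probes lay from 93073501 to 93710870, with 59 probes, a mean of -0.37 (SD 0.54) with the trend removed and -0.14 before, and -0.03 on the control array. The short losses from 45913301 and from 209744676 were called again. The losses at both ends were not.

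Single probes far from 0 were found over the whole chromosome on both arrays. At a log2 ratio of -1 or lower stood 610 tumor probes (2.80%, against 3.03% over all autosomes) and 496 control probes (2.27%, against 2.0%). At 1 or higher stood 500 tumor probes (2.29%, against 2.0%) and 807 control probes (3.70%, against 3.56%). The control thus had more probes at the high limit than the tumor.

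Most of these probes were dim. Both channels were well above background for 9.02% of the tumor probes at -1 or lower and for 35.0% of those at 1 or higher, and for 5.85% and 15.0% in the control. A low signal in 1 channel both moves the ratio and fails this mark, so low shares among probes picked for their ratio are partly built in. Of the probes at -1 or lower, 80 were so on both arrays, and 277 tumor ones were at 0 or higher in the control. At 1 or higher on both arrays were 103 probes. The matching counts over all autosomes are not given here, so these counts are not read as a trait of chromosome 1. Over the 21816 probes measured on both arrays the Pearson correlation was 0.25, and the probes share the array design, the dyes and the reference tissue.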

How the data were processed

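The authors scanned the arrays and used Agilent Feature Extraction 11.0.1.1. They deposited, per spot, intensity values on a linear scale, background-subtracted and dye-scaled, and a log10 ratio of red over green that the series table repeats (largest difference 0). That log10 ratio is exactly 0 at 830 tumor and 884 control probes of chromosome 1.

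Log2 ratios, tissue (Cy3) over reference (Cy5), were formed from these intensities. Outlier-flagged spots were dropped, which on chromosome 1 took 2 probes of the tumor array and 0 of the control array. The median over all autosomal probes of an array was then subtracted, and no loess or quantile step was applied. Windows needed at least 5 probes. The interval score used the derivative log ratio spread of all autosomes as the noise and applied the limit on the mean during the search. The brightness trend was a lowess curve (fraction 0.3). The scripts were tested on simulated data. Arrays per tissue numbered 1, which limits the precision, and SDs are over probes or windows.

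Chromosome 1, the limits and the regions to be named were chosen with earlier results of these data known. Named were stretches of 10 Mb, the 5 lowest and 5 highest windows of each array and of their difference, and the 5 intervals of highest score and of largest mean on each array. Only the leading intervals are described. The windows at 50 to 51, 175 to 176, 275 to 276 and 293 to 294 Mb and the first 5 windows were named after their values were seen, as was the interval called from 93073501 once the trend was removed. Alternative settings numbered 22 and covered centring, background, signal source, brightness, direction, windows, limits and the search.

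Normexp (offset 50) came from limma 3.58.1 in R 4.3.3. The other steps ran in Python 3.11.15, with pandas 2.3.3 and numpy 2.4.6 for tables, scipy 1.17.1 and statsmodels 0.14.6 for statistics, numba 0.67.0 for the search and matplotlib 3.10.9 for plots.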

Additional observations from a re-analysis of the deposited data

Results flagged for a closer look

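In 4 of the 29 windows of chromosome 1 where the tumor lay at 0.25 or higher, the control tissue lay below 0. These were the windows at 24 to 25 Mb (0.33 in the tumor and -0.04 in the control), 42 to 43 Mb (0.26 and -0.03), 50 to 51 Mb (0.26 and -0.01) and 72 to 73 Mb (0.36 and -0.07). With the brightness trend removed the values were 0.05 and -0.17, 0.06 and -0.14, 0.04 and -0.12, and 0.06 and -0.24. The windows were picked for these signs, which depend on the centring. The matching share over all autosomes is not given here, so their number is not read as a trait of chromosome 1. With each array centred on the mode, the chromosome 1 median moved from 0.06 to 0.03 in the tumor and from 0.01 to 0.08 in the control. The same shift puts the control above 0 at 24 to 25, 42 to 43 and 50 to 51 Mb. It also puts the tumor below 0.25 at 42 to 43 and 50 to 51 Mb. Only the window at 72 to 73 Mb then still meets both limits. Without the trend the tumor values are smaller than the SD of 0.0702 over the tumor windows, whereas the control values are larger in size than the SD of 0.0603 over the control windows, and the one at 72 to 73 Mb is the lowest of the control. The difference there is then 0.30, the only one of 0.25 or higher.

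The called tumor interval from 209744676, of 4 probes, had a mean of -1.33 in the tumor and 0.25 in the control. In the tumor 3 of these probes were not well above background, and without such spots the mean was -0.20. Because this filter uses the same signals as the ratio, the smaller mean is partly built in. With 1 array per tissue these differences were not tested.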

How the results depend on the processing

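Of 150 alternative values of the counts, medians and spreads, 92 stayed close to the main value, and of 396 for single regions 231 did. Counts are given in the order low, high for windows. Centring on the mode left 15 high tumor windows, 0 and 7 in the control, 18 low differences and 27 control intervals, and centring on chromosome 1 itself 11 high tumor windows. Probes well above background gave 2 and 0 control windows and 3 control intervals. The deposited log ratio and the series table both gave 0 high control windows, 4 low differences and 20 control intervals. Normexp gave 6 high tumor windows, 16 and 2 in the control (SD 0.138), 2 low differences and 20 control intervals. Without the brightness trend there were 0 and 0 windows in both tissues, 0 low differences, a tumor SD of 0.0702, and 10 tumor and 7 control intervals, and the difference at 294 to 295 Mb (0.00051) and the interval from 179117926 (-0.029) changed sign. For these settings the cause was not tested.

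Windows of 0.5 Mb gave 37 and 78 in the tumor, 8 and 9 in the control and 13 low differences, and windows of 5 Mb gave 3 and 2, 0 and 0, and 0, with a control SD of 0.0535. Window means gave 11 high tumor and 6 high control windows. By construction, a limit of 0.15 gave 96 high tumor windows, 11 and 15 in the control and 18 low differences, and a limit of 0.4 gave 9 and 3, 0 and 0, and 0. The limit on the mean applied after the search left 5 tumor intervals, all losses, and 1 control interval, and a score of at least 12 left 3 and 0.

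The opposite direction of the ratio turns every sign, with a tumor median of -0.064 and 29 and 17 windows. The windows named become 0.44 (0 to 1 Mb), -0.37 (20 to 21), -0.46 (25 to 26), -0.36 (72 to 73), -0.40 (180 to 181), -0.41 (181 to 182), 0.43 (286 to 287), 0.54 (288 to 289), 0.49 (289 to 290) and 0.47 (294 to 295). Their differences from the control become 0.30 (0 to 1), 0.31 (1 to 2), -0.37 (24 to 25), -0.35 (25 to 26), -0.31 (40 to 41), -0.29 (42 to 43), -0.43 (72 to 73), 0.28 (286 to 287), 0.31 (288 to 289) and 0.27 (294 to 295). The interval means become 0.39 (from 18501), -0.33 (23917726), 1.44 (45913301), -0.25 (63257976), -1.40 (86083276), -0.25 (179117926), 1.33 (209744676), -0.54 (210749226), 0.39 (281305451) and 0.50 (294077851), and 280 to 290 Mb becomes 0.36. The dyes in the labels give the direction used.

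No paired analysis was possible because each tissue has 1 array. Signal over background limits single probes, since 76.9% of them in the tumor and 72.7% in the control were well above it in both channels.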
